A study of Mus musculus with 10 samples.

Results

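The hypoxia and glycolysis genes examined here were 38 named genes out of the 32285 features counted in each library, taken by exact symbol from a list of transcripts known to respond to low oxygen and of the enzymes that turn glucose into lactate. They comprised 3 oxygen sensing genes (Hif1a, Egln1, Egln3), 4 secreted factors (Vegfa, Pgf, Adm, Mif), 2 genes of acid and lactate handling (Car9, Slc16a3), the glucose transporter Slc2a1, 13 glycolytic enzymes, 3 regulators of glycolysis (Pfkfb3, Pfkfb4, Pdk1), 8 genes of mitochondria, lipid and stress (Bnip3, Higd1a, Hilpda, Ero1l, Ddit4, Ndrg1, Ankrd37, Kdm3a) and 4 collagen and matrix enzymes (P4ha1, P4ha2, Plod2, Lox). The study asked how dietary L-fucose (L-fuc), a sugar given in the drinking water, alters the immune cells inside SW1 tumors, a transplanted mouse melanoma. Female C3H/HeJ mice of 4 to 6 weeks received SW1 cells under the skin of the right flank, and after 10 days of growth per the labels a pretreatment cohort was taken as day 0. The other mice drank control or L-fuc water for 7 or 21 days, the labels giving the L-fuc dose as 100 mM in one passage and 100 nM in another. Tumors were pooled into 1 droplet single-cell RNA library per condition (the pretreatment cohort, and both waters at each time), so that no mouse can be told from another and no condition has a second library. No allele or agent other than the tumor line and L-fuc was named, and all 5 libraries were described as sorted for CD45, the surface marker of leukocytes.

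When oxygen is ample, prolyl hydroxylases such as those encoded by Egln1 and Egln3 mark the transcription factor subunit HIF-1alpha, the product of Hif1a, for destruction. When oxygen falls the subunit is spared, pairs with its partner ARNT and binds DNA at a short core motif, raising glucose import, glycolysis, lactate export, pH control and vessel growth factors. The same genes can be driven without low oxygen, for instance by growth signals in proliferating tumor cells or by activation in macrophages and T cells.

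The core motif was sought in the 250 bases before each annotated start in the RefSeq promoter table of GRCm38.p6, to show how common it is among these genes. Windows were used for 34 of the 38 genes (not Ero1l, Ndrg1, Plod2 and Lox), 48 in all. Windows on a single chromosome were left out for these genes but kept in the whole table. The letters ACGTG or GCGTG, read on either strand with overlapping matches merged, occurred in 31 of the 34 genes (91.2%), against 41.5% of 27025 genes in the whole table. Counted by window, 77.1% of the genes' windows and 38.6% of all 32851 windows held them. The genes' windows were also richer in G and C, with a median of 63.2% against 52.4%, and the palindrome CACGTG, which contains ACGTG, occurred in 8.33% of their windows and 6.02% of all. The share of the difference that base composition alone would give was not tested, and a match of letters is a description, not a binding site. The 6 promoters printed here belong to the genes on which the comparisons turn: Car9 and Slc16a3, which were called in opposite directions between tumor cells and macrophages, Slc2a1, Bnip3 and Ankrd37, which stood higher in tumor cells with Car9 than in those without, and Adm, which was close to 0 in tumor cells. Each line gives the 250 bases before the start, 5′ to 3′ on the gene's strand, and capitals mark the motif.
Car9: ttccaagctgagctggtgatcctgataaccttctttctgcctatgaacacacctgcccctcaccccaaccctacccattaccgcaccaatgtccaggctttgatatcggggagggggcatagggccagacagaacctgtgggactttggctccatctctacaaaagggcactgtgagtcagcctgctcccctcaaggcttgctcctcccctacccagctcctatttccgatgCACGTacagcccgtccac
Bnip3: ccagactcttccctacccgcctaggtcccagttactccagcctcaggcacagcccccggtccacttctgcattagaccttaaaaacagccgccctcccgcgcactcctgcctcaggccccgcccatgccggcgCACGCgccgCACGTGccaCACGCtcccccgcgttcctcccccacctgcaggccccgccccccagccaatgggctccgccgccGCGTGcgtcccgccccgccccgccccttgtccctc
Slc2a1: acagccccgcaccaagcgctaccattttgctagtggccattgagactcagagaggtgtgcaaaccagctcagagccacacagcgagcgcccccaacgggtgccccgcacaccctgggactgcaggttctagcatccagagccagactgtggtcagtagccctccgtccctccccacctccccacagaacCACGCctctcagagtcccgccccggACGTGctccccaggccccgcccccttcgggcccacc
Ankrd37: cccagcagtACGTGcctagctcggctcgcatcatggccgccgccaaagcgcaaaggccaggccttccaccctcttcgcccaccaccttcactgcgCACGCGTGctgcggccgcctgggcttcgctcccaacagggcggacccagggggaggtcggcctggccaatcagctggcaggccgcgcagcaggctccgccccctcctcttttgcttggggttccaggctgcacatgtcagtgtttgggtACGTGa
Slc16a3: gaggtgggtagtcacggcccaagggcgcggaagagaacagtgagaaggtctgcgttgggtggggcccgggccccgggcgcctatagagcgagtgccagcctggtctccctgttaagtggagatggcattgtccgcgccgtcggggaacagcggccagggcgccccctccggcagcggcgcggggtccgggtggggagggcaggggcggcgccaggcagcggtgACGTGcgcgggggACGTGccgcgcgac
Adm: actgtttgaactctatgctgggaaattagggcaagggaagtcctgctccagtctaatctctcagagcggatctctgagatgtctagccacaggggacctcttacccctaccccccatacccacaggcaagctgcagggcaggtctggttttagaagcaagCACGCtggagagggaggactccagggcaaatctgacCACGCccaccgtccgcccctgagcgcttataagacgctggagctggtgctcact
The Car9 stretch lies at chr4:43506776-43507025 on the plus strand, Bnip3 at chr7:138909507-138909756 on the minus strand, Slc2a1 at chr4:119108495-119108744 on the plus strand, Ankrd37 at chr8:45999851-46000100 on the minus strand, Slc16a3 at chr11:120948817-120949066 on the plus strand and Adm at chr7:110627407-110627656 on the plus strand. The motif appears 1 time in the Car9 stretch, close to the start of the gene, while the Bnip3 stretch holds 4 separate matches and the Ankrd37 stretch 3. All 6 stretches lie directly upstream of the annotated start.

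Barcodes with at least 500 genes and at most 10% mitochondrial UMIs (unique molecular identifiers, each standing for 1 captured transcript) were kept, which left 1182 to 17897 barcodes and 14231519 to 114827373 UMIs per library. The filter kept 86.3% of barcodes at control day 7 and 59.1% at L-fuc day 7, and 57.1% to 85.2% in the other libraries. Tumor cells were barcodes with at least 1 Sox10 UMI and no Ptprc UMI (265 to 8996 per library), macrophages had at least 10 UMIs over C1qa, C1qb and C1qc (411 to 2071), T cells had at least 2 over Cd3e, Cd3d and Cd3g (50 to 1820), and the remaining barcodes (258 to 6335) are called other barcodes. Levels are given as CPM, the UMIs of a gene per 1000000 UMIs of its class in a library. Tumor cells held Sox10 at 399 to 485 CPM, with Erbb3 at 104 to 152, the first being the gate gene itself. Mitf, the melanocyte regulator, stood at 28.3 to 45.6. Of the pigment genes, no Tyr UMI was seen in any library, and Pmel, Dct and Mlana reached no more than 1.02, 2.62 and 0.0691. Barcodes without Ptprc, the gene of CD45, in such numbers do not match the labelled CD45 sort. T cells also carried summed macrophage markers of 3929 to 10554 CPM, against 16487 to 30038 in macrophages and 284 to 803 in tumor cells, and 23 to 693 barcodes per library passed more than 1 gate. The control and L-fuc day 7 libraries shared 433 barcodes, and every other pair shared 3 to 86. The median tumor cell held 7411.5 UMIs in the control day 7 library and 13921.5 to 23424 in the others.

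Each CPM value sums all barcodes of a class in 1 library and so is a share of the class's RNA, and a change in total RNA per cell cannot be told apart from a change in a gene. Where 5 values are given, they follow the order pretreatment, then control and L-fuc at day 7, then control and L-fuc at day 21. Classes were compared over the 5 libraries with edgeR's quasi-likelihood test, the library as a block, TMM scaling and Benjamini-Hochberg adjustment over all genes tested. With the library as a block, the spread behind these p-values is that of the class difference from library to library. The 5 libraries differ in condition, so this spread takes in condition and pool together. A gene was called at an adjusted p under 0.05 and at least 2-fold.

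**Figure D1:**
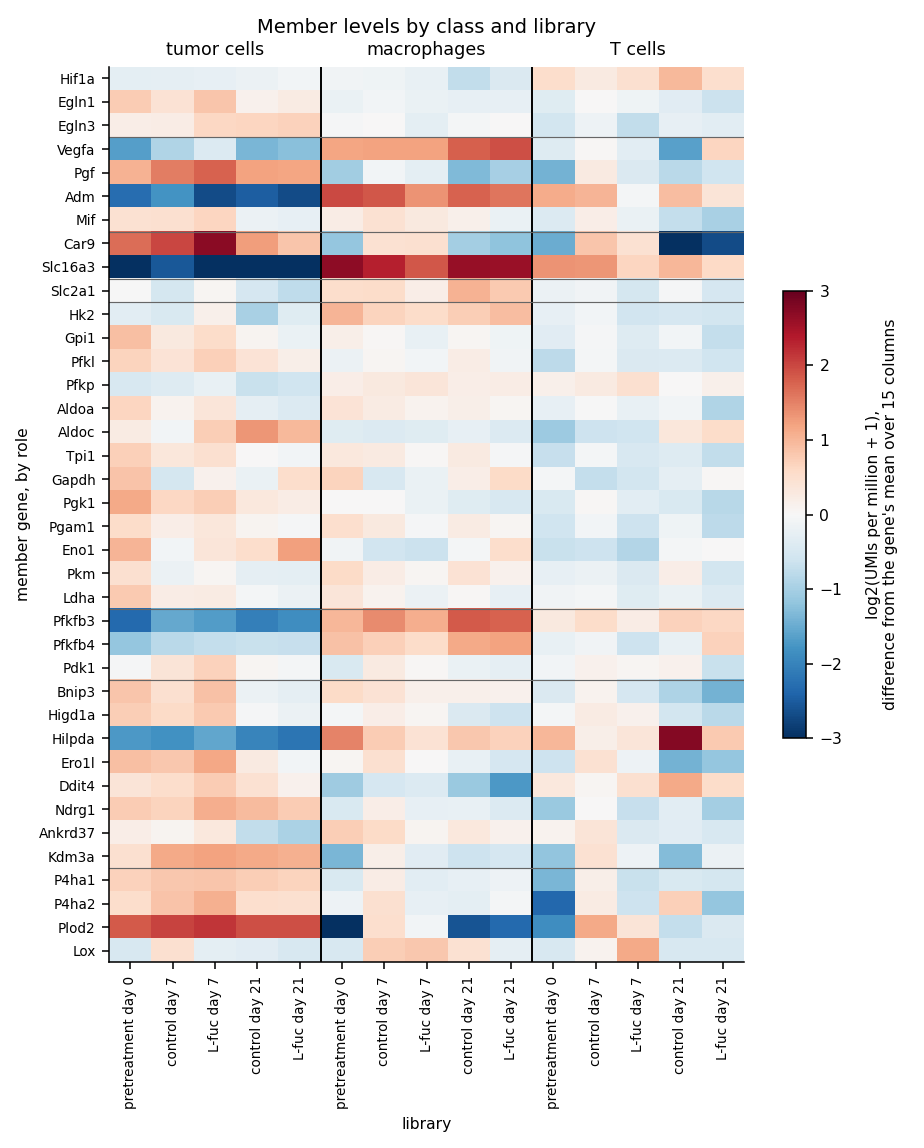
Heat map of the 38 genes (rows, by role) in tumor cells, macrophages and T cells of the 5 libraries (15 columns), as log2(CPM + 1) minus the gene's own mean over the columns, with colors ending at 3 and -3. Vegfa, Adm, Slc16a3, Pfkfb3 and Hilpda are below their mean in all 5 tumor columns, and Pgf, Car9 and Plod2 are above it in them.

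Between tumor cells and macrophages the called genes went both ways, and most genes were not called. Of 37 genes tested (Lox fell below the filter), 4 were higher and 10 lower in tumor cells, against 18.7% higher and 20.8% lower among all 12591 genes. The higher genes were Pgf, Car9, Kdm3a and Plod2, and the lower ones were Vegfa, Adm, Slc16a3, Slc2a1, Hk2, Pfkp, Pfkfb3, Pfkfb4, Hilpda and Ankrd37. All 14 lay on the same side in 5 of 5 libraries, but they were called on these libraries, so this is no separate support. The genes' median log2 fold was -0.41 on the TMM scale. Scaling to library totals moved the median of all genes by 0.58 and the genes' own median to 0.18, with 7 called higher and 8 lower, and all genes at 33.1% higher and 15.5% lower. Under that scaling 10 genes changed sign, none of them called under TMM.

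The oxygen sensing genes did not pass the 2-fold call between these classes. Hif1a stood at 109.8, 111, 113, 118 and 128 CPM in tumor cells and at 126, 122, 115, 80.2 and 99.1 in macrophages. Egln1, the main oxygen sensor among the prolyl hydroxylases, stood at 212, 168, 221, 137 and 148 in tumor cells and 104 to 118 in macrophages, a log2 fold of 0.11 (SE 0.16) after TMM scaling. Egln3, a hydroxylase that is itself induced by low oxygen, held 34.5 to 49.1 in tumor cells and 24.3 to 30.2 in macrophages.

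Among the secreted factors, vessel growth signals split by class. Vegfa, the principal endothelial growth factor, stood at 24.7, 42.6, 59.9, 30.3 and 33.2 CPM in tumor cells and at 182, 185, 187, 281 and 307 in macrophages. The ranges did not overlap, and tumor cells were 9.67-fold lower (log2 fold -3.27, SE 0.34, adjusted p = 0.000294). Pgf, the related placental growth factor, went the other way, with 35.1, 49.7, 58.3, 39.6 and 38.7 in tumor cells and 7.54, 15.6, 13.3, 5.97 and 7.75 in macrophages (3.41-fold higher, log2 fold 1.77, SE 0.12, adjusted p = 0.000102). Adm, the vasodilator peptide adrenomedullin, was close to absent from tumor cells, at 0.655, 1.33, 0.256, 0.465 and 0.271, and held 30.9, 28.5, 19.6, 26.5 and 23.7 in macrophages. Its log2 fold was -6.26 (SE 0.41, adjusted p = 9.54e-05). Tumor cells held 117 Adm UMIs over the 5 libraries, so the size of this fold rests on values near 0. Mif, a cytokine made by most cells, stood at 1169.5 to 2172 in tumor cells and 1224 to 1917 in macrophages and was not called.

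The acid and lactate pair was called in opposite directions. Car9, a surface carbonic anhydrase that moves acid out of the cell and is a widely used marker of low oxygen, held 78.4, 98.4, 162, 58.4 and 43.3 CPM in tumor cells. In macrophages it held 10.2, 32.8, 33.7, 11.2 and 9.69. The 2 ranges did not overlap, and Car9 was 3.61-fold higher in tumor cells (log2 fold 1.85, SE 0.18, adjusted p = 0.000234). Slc16a3, the lactate exporter MCT4, was the reverse, with 0.873, 2.53, 1.07, 0.186 and 0.677 in tumor cells and 131, 101, 73.4, 124 and 122 in macrophages. Tumor cells were 205-fold lower (log2 fold -7.68, SE 0.61, adjusted p = 0.00014), on 1 to 140 barcodes with a UMI per library. The size of this fold also rests on tumor cell values near 0. A Slc16a3 UMI was found in 0.377% to 1.56% of tumor cells, and in 27.3% to 46.9% of macrophages. After every barcode was thinned to 2000 UMIs, the macrophage share was 11.3% to 19.2% and the tumor share at most 0.483%.

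Slc2a1, the transporter GLUT1, held 121, 84.1, 127, 85.2 and 71.6 CPM in tumor cells and 177, 179.8, 141, 254 and 213 in macrophages, which left no overlap (log2 fold -1.62, SE 0.28, adjusted p = 0.00224). Of the 13 glycolytic enzymes 2 were lower in tumor cells and 11 were not called, where 20.8% of all genes were lower. The median log2 fold of the 13 was -0.47. Gpi1, Pfkl, Tpi1, Gapdh, Pgam1 and Ldha had log2 folds below 0 after TMM scaling. Before it these enzymes had a higher mean CPM in tumor cells, Gapdh at 2292 and 2245, so their direction rests on the scaling. The 2 called were Hk2, which traps glucose in the cell, at 43.0, 39.4, 60.7, 27.0 and 41.8 against 111, 86.9, 80.1, 90.9 and 103 in macrophages (log2 fold -1.83, SE 0.24, adjusted p = 0.000744), and Pfkp, a phosphofructokinase isoform, at 39.2 to 54.1 against 71.7 to 81.4 (log2 fold -1.36, SE 0.11, adjusted p = 0.00015). Pfkfb3 and Pfkfb4 make the sugar phosphate that switches phosphofructokinase on. Pfkfb3 held 3.71 to 7.21 in tumor cells and 46.6 to 84.1 in macrophages, 18.2-fold lower in tumor cells (log2 fold -4.18, SE 0.25, adjusted p = 7.95e-05). Pfkfb4 held 3.27 to 4.93 and 13.0 to 21.0 (log2 fold -2.51, SE 0.20, adjusted p = 0.000132). Pdk1, a kinase that keeps pyruvate out of mitochondria, was not called (31.4 to 54.1 and 23.6 to 39.5).

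The most abundant enzymes were not called between the classes. Aldoa, the main aldolase, held 2527, 1740.0, 2080.4, 1323 and 1202 CPM in tumor cells and 1662 to 2145 in macrophages. Ldha, the lactate dehydrogenase subunit that favors lactate, held 2178, 1471, 1491, 1205 and 1113 in tumor cells and 1068 to 1629 in macrophages. The fits put their log2 folds at -0.71 (SE 0.19) and -0.41 (SE 0.14). Pgk1, a payoff-phase kinase, held 1608, 1130.0, 1224, 916 and 864 in tumor cells and 529 to 745 in macrophages. Of the genes of the citric acid cycle and pyruvate entry, listed for comparison, 0 of 22 were called by edgeR between these classes. Their median log2 fold was 0.16, and 18.7% of all genes were called higher and 20.8% lower.

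The genes of mitochondria, lipid and stress gave 1 higher and 2 lower of 8, beside 18.7% and 20.8% of all genes. Hilpda, which blocks fat breakdown at lipid droplets, held 44.1, 41.1, 49.6, 36.8 and 31.4 CPM in tumor cells and 419, 251, 202, 258 and 239 in macrophages (10.5-fold lower in tumor cells, log2 fold -3.39, SE 0.23, adjusted p = 9.99e-05). Ankrd37, a small ankyrin repeat protein, held 13.8 to 34.7 and 28.9 to 46.6 (log2 fold -1.20, SE 0.26, adjusted p = 0.00636), and its ranges overlapped on this scale. Kdm3a, a histone demethylase, held 58.5 to 96.7 in tumor cells and 15.3 to 46.4 in macrophages (log2 fold 1.04, SE 0.11, adjusted p = 0.000338). Bnip3, which tags mitochondria for removal, held 326, 255, 337, 161 and 152 against 274, 247, 204, 201 and 198 and was not called. Ndrg1, a stress-induced gene, held 404 to 544 against 185 to 289, and Ero1l, an oxidase of protein folding, 129 to 307 against 95.4 to 191, and neither reached the call.

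Of the collagen enzymes, Plod2, which hydroxylates collagen lysines for cross-linking, held 122, 137, 151, 129 and 129 CPM in tumor cells and 1.32, 47.4, 31.2, 4.67 and 5.81 in macrophages (9.72-fold higher, log2 fold 3.28, SE 0.66, adjusted p = 0.00438). The 2 day 7 macrophage values stood above the other 3. Summed tumor markers in macrophages moved in the same way, at 42.2, 249.6, 150.0, 64.8 and 77.2, against 763 to 830.5 in tumor cells, and their part in the macrophage values of Car9, Pgf, Kdm3a and Plod2 was not tested. P4ha1 and P4ha2, the collagen prolyl hydroxylases, were not called. Lox, the lysyl oxidase, had 0 to 0.94 CPM in tumor cells and 0 to 1.45 in macrophages.

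**Figure D2:**
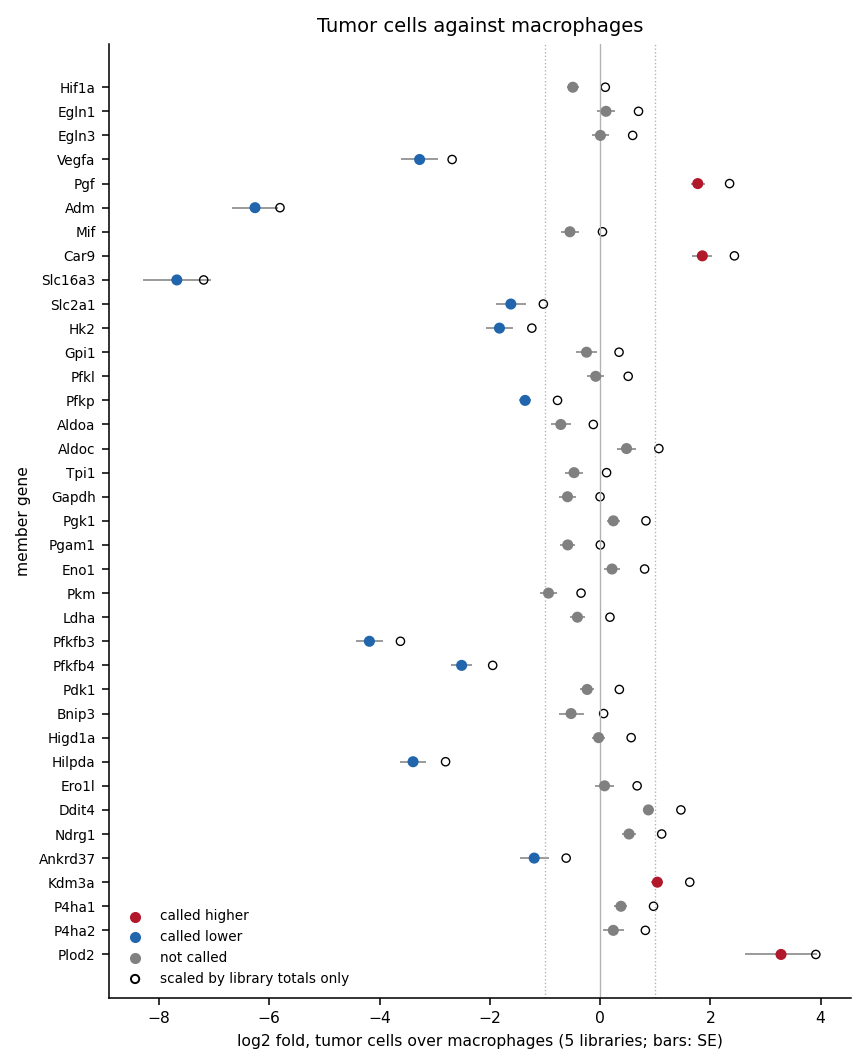
Log2 fold of tumor cells over macrophages (horizontal axis) for the 37 genes tested, with filled points from the TMM-scaled edgeR fit over 5 libraries, bars for the SE, color by call, dotted lines at 2-fold and open circles for scaling by library totals. Slc16a3 at -7.68 and Adm at -6.26 lie farthest left, Plod2 at 3.28 lies farthest right, and each open circle lies to the right of its filled point.

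Against T cells, tumor cells had 7 of 37 genes higher and 8 lower, where 18.2% and 18.9% of 12476 genes were. The higher genes were Pgf, Car9, Aldoc, Ndrg1, Kdm3a, P4ha1 and Plod2, and the lower ones Hif1a, Vegfa, Adm, Slc16a3, Pfkp, Pfkfb3, Pfkfb4 and Hilpda. Hif1a was the one oxygen sensing gene called, at 194, 161, 188, 266 and 191 CPM in T cells, above every tumor value (log2 fold -1.18, SE 0.12, adjusted p = 0.000424). Car9 held 7.90, 42.9, 33.3, 1.80 and 2.89 in T cells (log2 fold 2.53, SE 0.42, adjusted p = 0.00273). The day 21 values were near 0, in 67 and 50 barcodes, and the size of this fold rests in part on them. Slc16a3 held 29.8 to 50.8 in T cells (log2 fold -5.69, SE 0.41, adjusted p = 0.000157). T cell barcodes carried the macrophage UMIs given above, and their part in these calls was not tested. With barcodes in more than 1 gate left out, 15 genes were higher and 4 lower, against 19.4% and 15.6% of all genes, and the 4 were Hif1a, Slc16a3, Pfkfb3 and Hilpda. Vegfa turned from a log2 fold of -1.29 (adjusted p = 0.0219) to 0.64 (adjusted p = 0.354), and its T cell level went from 60.8, 81.8, 64.2, 25.1 and 125 to 27.3, 43.4, 27.4, 0 and 2.60. The genes that joined the higher side were Egln3, Pfkl, Tpi1, Pgk1, Pgam1, Eno1, Bnip3 and Ero1l, 5 of them glycolytic enzymes. Scaling to library totals gave 14 higher and 4 lower, with the median of all genes moved by 0.32.

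Macrophages carried more of the program than T cells. Of 37 genes, 16 were higher in macrophages and 2 lower, against 12% and 8.89% of 11827 genes. The 16 included 6 of the 13 glycolytic enzymes (Hk2, Aldoa, Tpi1, Gapdh, Pgam1 and Pkm), Slc2a1, both Pfkfb regulators, Vegfa, Adm, Mif, Slc16a3, Bnip3, Ero1l and Ankrd37. Vegfa showed the largest of these differences (13.1-fold, log2 fold 3.71, SE 0.61, adjusted p = 0.00242), at a mean of 244 and 20.1 CPM. Without barcodes in several gates, its T cell level given above was near 0 in both day 21 libraries. The size of this fold rests in part on those values, from 56 and 39 T cell barcodes in the control and L-fuc libraries. Slc16a3 was 6.13-fold higher (log2 fold 2.62, SE 0.21, adjusted p = 0.000115). Slc2a1 was 3.70-fold higher (log2 fold 1.89, SE 0.30, adjusted p = 0.00209), and Hk2 4.54-fold (log2 fold 2.18, SE 0.21, adjusted p = 0.000209). Ddit4, an inhibitor of mTOR signaling, was lower (log2 fold -1.66, SE 0.28, adjusted p = 0.00296), at 63.0, 93.7, 98.9, 61.1 and 39.6 CPM in macrophages and 165, 138, 184, 293 and 196 in T cells. Plod2 was also lower (log2 fold -1.34, SE 0.39, adjusted p = 0.0294). Scaling to library totals left 10 higher and 3 lower, with Hif1a added to the lower side, and moved the median of all genes by -0.31. The citric acid cycle list had 0 of 22 genes called by edgeR in this comparison and 0 of 22 between tumor and T cells.

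Other genes of the same pathways, 40 in a list kept apart from the 38, were also called in both directions. Between tumor cells and macrophages 34 were tested, with 7 higher and 7 lower in tumor cells, beside 18.7% and 20.8% of all genes. Hk3, a hexokinase of myeloid cells, was lower in tumor cells (log2 fold -7.05, SE 0.49, adjusted p = 0.000104), and the glucose transporters Slc2a3 (-3.18) and Slc2a6 (-2.86) were lower too. Pfkm (1.34), Eno3 (1.52) and Ldhb (1.37), isoforms of phosphofructokinase, enolase and lactate dehydrogenase, were higher in tumor cells. Car12, another surface carbonic anhydrase, was higher with Car9 (log2 fold 2.01, SE 0.48, adjusted p = 0.00876), at a mean of 3.77 and 0.646 CPM. Vldlr (3.34), Angptl4 (1.91) and Ppp1r3c (2.68) were higher, while Rora (-5.38), Cited2 (-2.23) and Rragd (-2.12) were lower. Between tumor cells and T cells 5 of 37 were higher and 9 lower, beside 18.2% and 18.9% of all genes. Between macrophages and T cells 10 of 34 were higher and 5 lower, beside 12% and 8.89%. Epas1, the HIF-2alpha gene, was lower in tumor cells than in T cells (log2 fold -4.91, SE 0.74, adjusted p = 0.00189).

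Within tumor cells most of the genes were higher where a Car9 UMI was found. The list was chosen with earlier results of these data known, so this describes the list and is not separate support for it. The cells of each library were divided by whether they held a Car9 UMI, which 17.8% to 42.5% of them did, and the summed levels of the 2 sets were compared as a description, since cells of 1 pool are not replicates and a gene close to the detection limit divides cells in part by chance. With Car9, 31 of 32, 33 of 37, 33 of 35, 32 of 34 and 30 of 34 genes with enough UMIs were higher. Their median log2 ratio was 1.17, 0.84, 1.09, 1.22 and 1.07, where the median of all genes was -0.21, -0.13, -0.19, -0.17 and -0.17. With that median below 0, most of all genes were lower with Car9 in each library, but their exact share was not counted. Median depth was close in 4 libraries (16312 UMIs with and 17099 without Car9 at pretreatment) and higher with Car9 at L-fuc day 21 (29226 and 20462).

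Ero1l stood highest by this measure. Cells with Car9 held 654, 466, 558, 535 and 362 Ero1l CPM and cells without held 112, 139, 105, 73.8 and 53.7, a ratio of 3.34 to 7.25. Slc2a1 followed, with a ratio of 3.08 to 6.64, and then Vegfa with 2.33 to 6.51. Bnip3 ran from 2.73 to 5.49, Ankrd37 from 2.51 to 4.03 and P4ha2 from 2.31 to 4.08. Among the oxygen sensors, the induced hydroxylases were higher with Car9 in 5 of 5 libraries, Egln1 by 2.18 to 2.68 times and Egln3 by 1.67 to 2.71 times. Hif1a itself was lower in 5 of 5, with a ratio of 0.815 to 0.919, in which 2 of the 5 intervals for counting error took in 1. All glycolytic enzymes but Aldoc were higher in 5 of 5 libraries, by median from Ldha at 1.49 to 1.84 up to Gpi1, the isomerase of glucose phosphate, at 2.06 to 2.95. Aldoc was 0.872 at L-fuc day 21 and 1.51 to 1.74 in the others. Among genes called lower in tumor cells than in macrophages, Slc16a3 was at 0.437 and 1.13 in the 2 libraries that could be compared, Pfkfb3 at 0.64 to 1.08 and Pfkfb4 at 0.751 to 1.05 in 4, and Adm at 1.005 in 1, while Hilpda was at 1.67 to 2.38 in 5. Cell cycle genes were lower with Car9, 8 of 8 in 5 of 5 libraries, with Mki67, a marker of cycling cells, at 0.293 to 0.589.

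**Figure D3:**
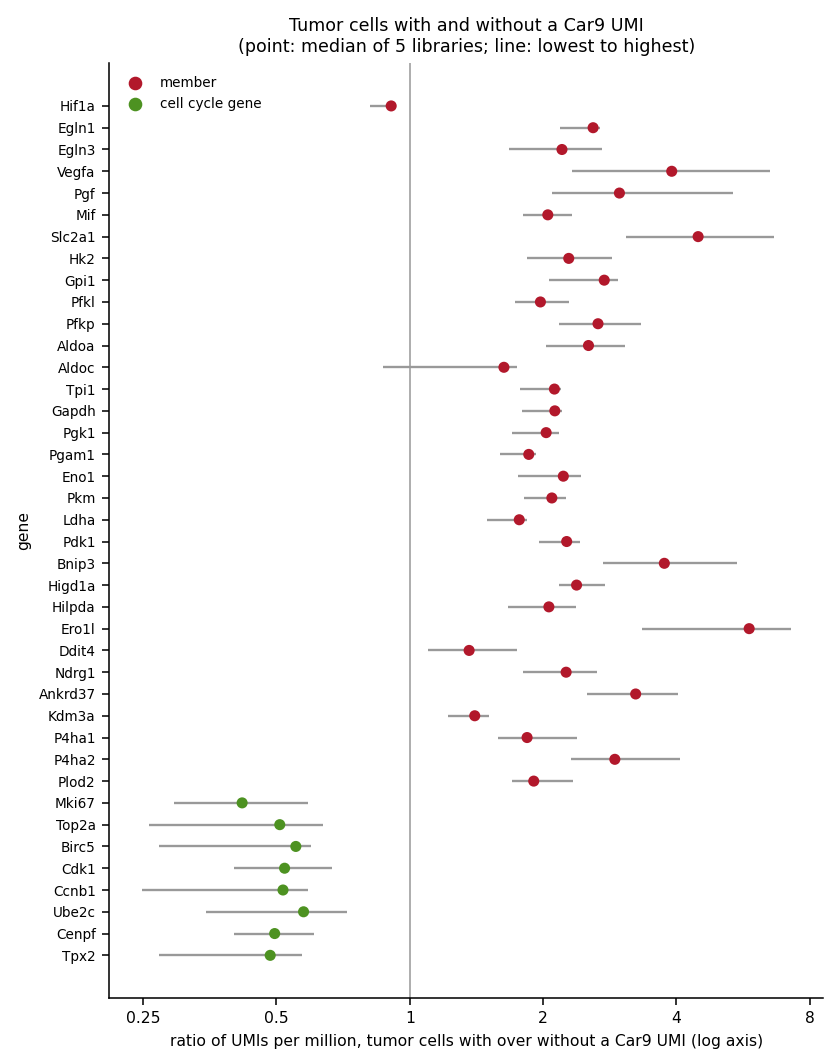
Ratio of CPM in tumor cells with a Car9 UMI over those without (log axis), with the point at the median of 5 libraries and the line from the lowest to the highest, for genes that could be compared in all 5. Ero1l, Slc2a1, Vegfa and Bnip3 lie farthest right (red), Hif1a lies just left of 1, and the 8 cell cycle genes (green) lie left of 1.

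The comparison the study was built on is that of L-fuc with control water. With 1 library per condition no test between conditions was run, and each ratio is given with its exact 95% interval for counting error only. At day 7, tumor cells of the L-fuc library held higher levels of most of these genes, by less than 2-fold. Of 38 genes with at least 30 UMIs, 34 had a ratio above 1, against 40.1% of all 13983 genes, and the median log2 ratio was 0.24 where that of all genes was -0.04. At least 2-fold higher were 0 of the 38 (1.51% of all genes), and 3 were at least 2-fold lower (3.83% of all genes). The 3 were Adm, Slc16a3 and Lox, each with fewer than 3 CPM in either library.

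Among the genes outside glycolysis, Car9 had the highest ratio. It went from 98.4 to 162 CPM with L-fuc, a ratio of 1.65 (1.59 to 1.70), and the share of tumor cells with a Car9 UMI was 42.5% (40.7 to 44.3) with L-fuc against 27.8% (26.8 to 28.7) without. With each cell thinned to 2000 UMIs these shares were 21.1% (19.6 to 22.7) and 14.1% (13.4 to 14.8), and in macrophages 4.01% and 4.76%. Slc2a1 had a ratio of 1.51 (1.46 to 1.57), and Vegfa of 1.41 (1.33 to 1.48). Egln1, Egln3, Ndrg1 and Bnip3 lay at 1.32, 1.32, 1.35 and 1.32, while Hif1a was at 1.02 (0.982 to 1.06). All 13 glycolytic enzymes had a ratio above 1, with log2 ratios from 0.02 to 0.82, Aldoc at 1.77 (1.67 to 1.87), Gapdh at 1.58 (1.56 to 1.59) and Hk2 at 1.54 (1.46 to 1.62) at the top and Pgk1 at 1.08 and Ldha at 1.01 at the foot. Over 12 settings of the filters and gates, the log2 ratio of Car9 ran from 0.62 to 0.73 and that of Slc2a1 from 0.45 to 0.71. Beside this, 5 of 22 citric acid cycle genes had a ratio above 1 and 8 of 8 cell cycle genes had one below 1, with a summed cell cycle level of 949 CPM in control and 750.2 in L-fuc tumor cells. The 4 markers of red cells summed to 628 and 1649.8 in the same cells. The part of these in the result was not tested.

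Macrophages and T cells did not share that direction at day 7. In macrophages 7 of 38 genes had a ratio above 1, against 33% of all genes, with a median log2 ratio of -0.23 where that of all genes was -0.14. Of these genes 0 were at least 2-fold higher and 0 lower in macrophages, where 2.91% and 4.23% of all genes were. The lowest was P4ha2 at 0.581 (0.49 to 0.688), followed by Plod2 at 0.658 (0.588 to 0.738), P4ha1 at 0.683 (0.638 to 0.732) and Adm at 0.688 (0.595 to 0.796). Slc16a3 stood at 0.724 (0.672 to 0.781) and Slc2a1 at 0.785 (0.742 to 0.829), while Vegfa was at 1.01 (0.957 to 1.06). In T cells 7 of 38 had a ratio above 1, with a median log2 ratio of -0.37 against -0.13 for all genes. With that median below 0, most of all genes also had a ratio below 1 in T cells. Lox was at least 2-fold higher there (3.64% of all genes), on 5 and 31 UMIs, and Adm was lower (7.38%), at 15.5 and 6.74 CPM. The summed tumor markers were 249.6 and 150.0 in macrophages of the control and L-fuc libraries and 326 and 149 in their T cells, and their part in these ratios was not tested. Ratios above 1 in all 3 classes were found for 4 genes, Gapdh, Aldoc, Pfkp and Ddit4, with Gapdh at 1.58, 1.22 (1.19 to 1.24) and 1.12 (1.09 to 1.14) in tumor cells, macrophages and T cells. The share of all genes above 1 in all 3 classes was not counted.

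**Figure D4:**
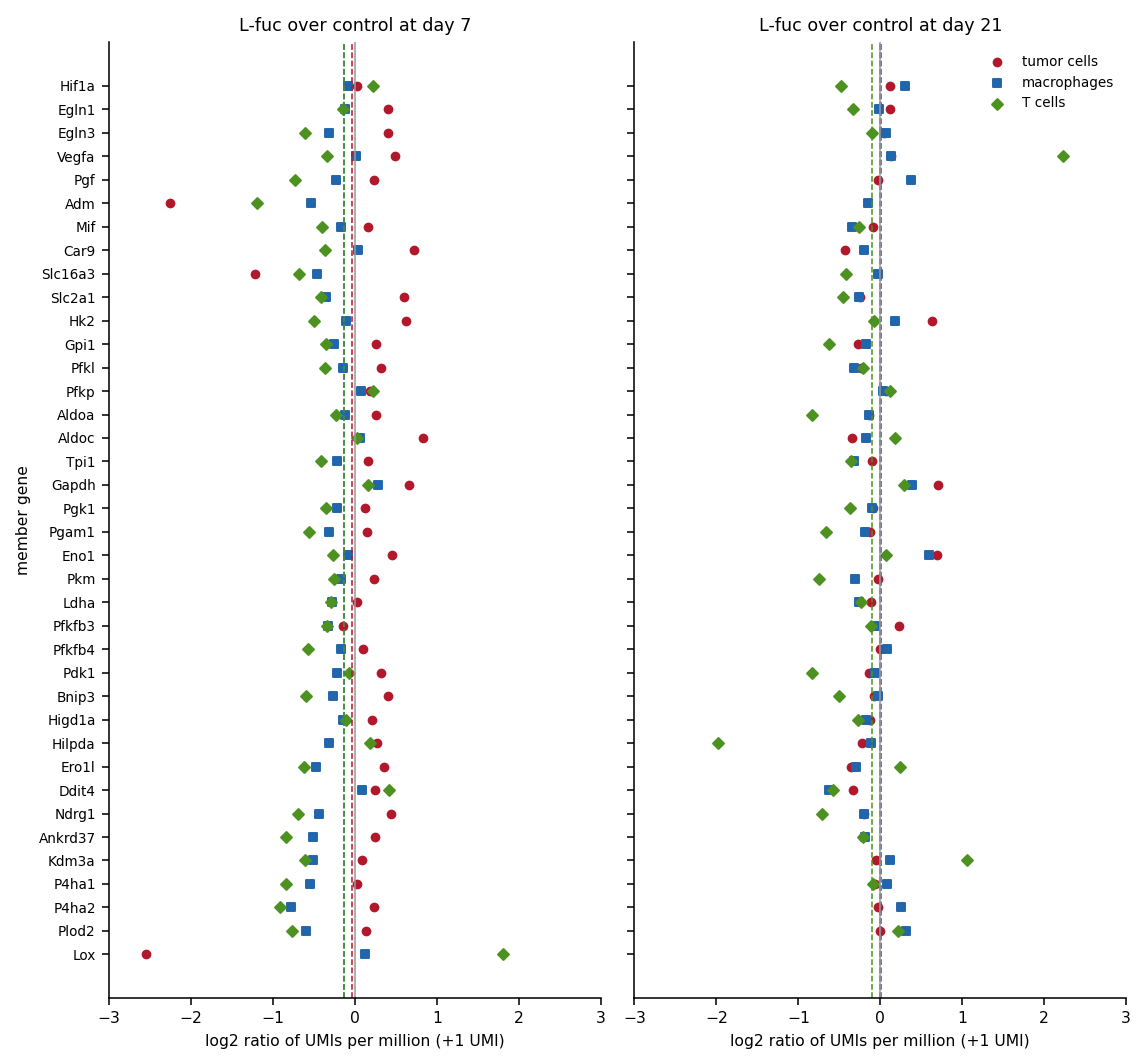
Log2 ratio of L-fuc over control CPM (1 UMI added) for each gene with enough UMIs at day 7 (left) and day 21 (right) in tumor cells (circles), macrophages (squares) and T cells (diamonds), with dashed lines at the median of all genes in each class. At day 7, 34 of 38 tumor points lie right of 0 against 7 of 38 in macrophages and 7 of 38 in T cells, and at day 21, 10 of 35 tumor points do.

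At day 21 the median in tumor cells was on the other side of 0. Of 35 genes with enough UMIs, 10 had a ratio above 1, against 49% of all genes, and the median log2 ratio was -0.08 where that of all genes was -0.01. At least 2-fold higher or lower were 0 genes, against 1.87% and 0.713% of all genes. Car9 stood at 0.741 (0.646 to 0.849) and Slc2a1 at 0.84 (0.753 to 0.936), the other side of 1 from day 7, while Gapdh at 1.64 (1.60 to 1.67), Eno1 at 1.62 (1.56 to 1.67) and Hk2 at 1.55 (1.32 to 1.83) were above 1 on both days. Cell cycle genes were above 1 in 8 of 8, with a sum of 1272 and 1734. Macrophages at day 21 had 13 of 37 genes above 1, a median log2 ratio of -0.11 against 0.01 for all genes and 0 genes at 2-fold, against 3.41% and 0.782% of all genes. With the median of all genes above 0, most of all genes had a ratio above 1 in these macrophages. The day 21 T cells numbered 67 and 50, and their ratios rest on few barcodes. Vegfa at 4.98 (2.86 to 9.36) and Kdm3a at 2.26 (1.08 to 5.32) were at least 2-fold higher (6.92% of all genes) and Hilpda at 0.253 (0.218 to 0.294) lower (8.42%). Without barcodes in another gate, control T cells held 0 Vegfa UMIs and L-fuc T cells 1, and Kdm3a rested on 2 and 4 UMIs.

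Over time in control mice, the glycolytic enzymes were mostly below the pretreatment level in tumor cells. From day 0 to day 7, 1 of 13 enzymes had a ratio above 1, with a median log2 ratio of -0.51, and the 13 summed to 16337 and 10105 CPM. The 25 genes outside the enzymes had a median of 0.15, and all genes 0.03. At least 2-fold lower were Gapdh at 0.381 (0.375 to 0.387) and Eno1 at 0.467 (0.452 to 0.483), and higher were Slc16a3 and Lox on 4 and 0 UMIs at pretreatment, against 2.69% and 11.1% of all genes. From day 7 to day 21, 10 of 38 genes were above 1 in tumor cells, with a median of -0.29 against 0.16 for all genes, while 21 of 22 citric acid cycle genes were above 1. The median of all genes was above 0 in both steps, so most of all genes were above 1. Bnip3 went from 255 to 161, Ero1l from 241 to 165, Higd1a, a mitochondrial protein, from 322 to 209, and Car9 from 98.4 to 58.4. Aldoc, a neural aldolase, stood at 2.67 (2.47 to 2.88) and was the 1 gene at least 2-fold higher (5.65% of all genes). Adm, Slc16a3 and Lox were at least 2-fold lower (7.27%). Dissociation stress genes summed to 2939 in the control day 7 and 9465 in the control day 21 tumor cells, and their part in this was not tested.

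In macrophages the genes at least 2-fold higher at control day 7 than at day 0 were the 4 called higher in tumor cells than in macrophages. These were Plod2 (35.9-fold, 17.3 to 89.6), Car9 (3.22-fold, 2.43 to 4.36), Kdm3a (3.04-fold, 2.41 to 3.88) and Pgf (2.07-fold, 1.47 to 2.98). The 4 of 37 were a smaller share than the 24% of all genes. Gapdh was lower (2.64%). By control day 21 Plod2, Car9 and Pgf were at least 2-fold lower than at day 7 (16.8% of all genes), with 0 genes at least 2-fold higher (3.98%). Sox10, the gate gene of tumor cells, stood at 6.22, 103, 64.8, 14.8 and 23.4 CPM in macrophages, and the part of tumor RNA in these values was not tested. Vegfa followed another course, at 182, 185, 187, 281 and 307, and so did Pfkfb3, at 46.6, 63.1, 50.1, 84.1 and 80.7, both highest in the 2 day 21 libraries. T cells had 8 of 37 genes at least 2-fold higher at control day 7, close to the 21.3% of all genes, and 0 lower against 4.6%. The 8 were Plod2, P4ha2, Car9, Pgf, Kdm3a, P4ha1, Ndrg1 and Ero1l. Sox10 stood at 10.3 and 144 in these T cells, and the part of tumor RNA in the 8 was not tested. At control day 21 T cells had 3 genes higher and 6 lower than at day 7, against 10.9% and 11.3% of all genes, the 3 being Hilpda, Ddit4 and Aldoc. In T cells of 1 gate only, Aldoc was at 19.5 and 7.30 CPM at days 7 and 21 (88 and 2 UMIs), and without any gate UMI of another class Ddit4 was at 182 and 41.6 (88 and 7 UMIs), both the other way.

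**Figure D5:**
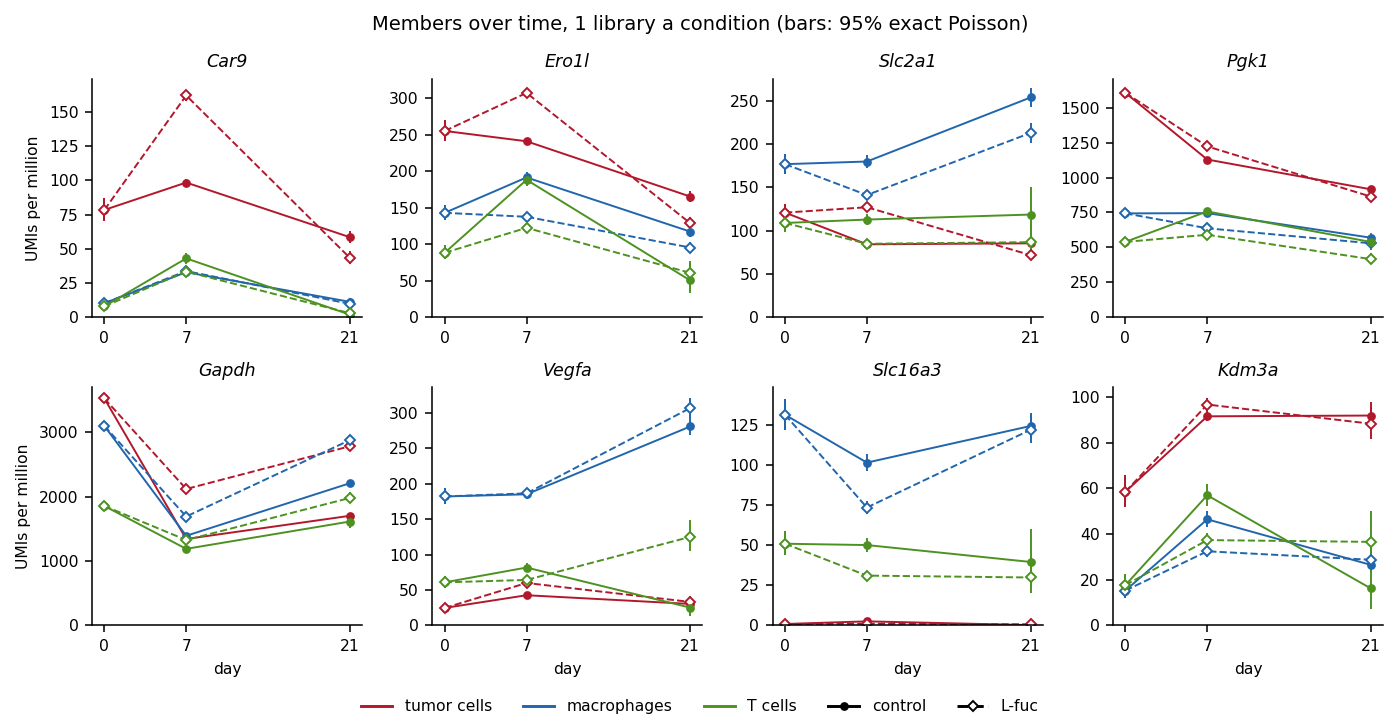
CPM of 8 of the genes (vertical axis from 0) at days 0, 7 and 21 in tumor cells, macrophages and T cells, with solid lines for control, dashed lines for L-fuc, both starting at the one pretreatment library, and bars for the exact 95% Poisson interval. Car9 in tumor cells is highest in the L-fuc day 7 library, at 162, and Vegfa in macrophages is highest at day 21, at 281 and 307.

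The other barcodes, which can hold leukocytes outside the gates, stromal cells and tumor cells without a Sox10 UMI, differed most by library. Lox, nearly absent elsewhere, held 0.538, 7.18, 29.3, 288 and 215 CPM there, highest in the 2 day 21 libraries. Fibroblast markers summed to 290.0, 566, 1573, 12697 and 8891 in the same barcodes. Adm held 25.8, 4.39, 20.6, 112 and 56.0, and neutrophil markers summed to 182, 53.5, 349, 1186 and 944. Hilpda was highest at pretreatment, at 998, 65.0, 90.1, 206 and 108, and B cell markers summed to 1728, 11.1, 32.1, 257 and 469. The part of these cell types in the values was not tested.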

How the data were processed

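Gene expression libraries were made by the authors on the 10x Genomics droplet platform. Processing notes name Cell Ranger 3.0 and Seurat 4.0, the matrix headers name cellranger 7.1.0, and the build was mm10. The authors deposited UMI counts per gene and barcode, not normalized, with no cell annotation, and 5 receptor libraries were not used. Here barcodes were filtered (at least 500 genes, at most 10% mitochondrial UMIs), gated by marker UMIs and summed per class and library in Python 3.11.15. No doublet caller was run, and barcodes in more than 1 gate were left out of the pair of classes they joined. Classes were compared in edgeR 4.0.16 with at least 20 barcodes per sum and DESeq2 1.42.0 as an alternative. In simulated counts with 200 changed genes, 199 were recovered between tumor cells and macrophages with 0 false calls. Between tumor and T cells 199 were recovered, and between macrophages and T cells 200, each with 1 false call. The planted changes exceeded the 2-fold cut, lay in well-counted genes and were the same in every library. Changes near 2-fold, or that vary by library, were not simulated. Apart from the planted genes, both classes of a pair had the same mean profile, so the scaling between unlike classes was not tested. Conditions were compared by ratio, with a pseudocount of 1 UMI on the log2 scale and at least 30 UMIs in the 2 libraries together. Intervals are exact Poisson, Clopper-Pearson or conditional binomial at 95% and cover counting error only. All genes of the list were described, with values in every library for genes called between classes or at least 2-fold between conditions and for the most abundant of each role. The genes, lists and gates were chosen with earlier results of these data known. Aldoa has 2 features, of which the main one was used. Reads of near-identical copies, such as those of Eno1 and Gapdh, may be split between features. Alternatives covered the filters, gates, depth, scaling, library block and each library left out, and 1, which left out barcodes with any gate UMI of another class, was chosen after seeing the data.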

Additional observations from a re-analysis of the deposited data

Results flagged for a closer look

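The direction of the L-fuc difference at day 7 was not shared between classes. Set against control water, L-fuc gave a median log2 ratio over the genes of 0.24 in tumor cells, -0.23 in macrophages and -0.37 in T cells. The median of all genes was -0.04, -0.14 and -0.13. From the control to the L-fuc library, summed tumor markers were 249.6 and 150.0 CPM in macrophages and 326 and 149 in T cells, and summed red cell genes 692 and 3849 in macrophages and 1126 and 3530.04 in T cells, and their part was not tested. Of the 38 genes, 24 had a ratio above 1 in tumor cells and below 1 in macrophages, with both 95% counting intervals clear of 1, and 0 had the reverse, where 4.84% of 12208 genes did the first and 4.19% the second. The 24 included Egln1, Slc2a1, Bnip3, Ero1l and 10 of the glycolytic enzymes, but not Car9, which stood at 1.03 (0.907 to 1.16) in macrophages. That exception depended on barcodes in several gates. In macrophages of 1 gate only, Car9 was lower with L-fuc, at 23.3 CPM (261 UMIs) against 28.8 (240 UMIs) in control. The count of 24 was not repeated for such barcodes. Against T cells the count was 25, with 1 gene in reverse, where 5.73% and 5% of 12151 genes went each way. Whether an interval clears 1 depends on a gene's UMI count, and the shares of all genes were not matched for abundance. Ldha, with 201670 tumor cell UMIs over the libraries, was among the 24 although its tumor ratio lay close to 1. With barcodes thinned to 2000 UMIs the log2 ratio of Slc2a1 was 0.71 in tumor cells and -0.42 in macrophages, and that of Ero1l 0.30 and -0.56. Each condition is 1 library, the same 2 libraries supply all 3 classes, and the difference between classes was not tested across replicates.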

How the results depend on the processing

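Counts of calls between classes stayed within 1.5 times in 81 recounts and not in 15, and medians between conditions held in 123 recomputations and moved in 9. Here held means inside a 95% interval for the main median, taken from the ranked ratios of the genes. That interval measures the spread over genes, which are not replicates of a condition, so a median that held can still have shifted. Genes higher in tumor cells than in macrophages went from 4 to 7 under library totals. Between tumor and T cells, 7 higher and 8 lower became 15 and 4 without barcodes in several gates, 18 and 4 without any gate UMI of another class, 14 and 4 under library totals, 11 higher with no filter on low counts and 5 lower at a minimum of 50 barcodes. Between macrophages and T cells, the 16 higher became 10 under library totals, and the 2 lower became 1 with no library block and at 50 barcodes. Leaving out each library gave 3 to 4 and 10 to 11 calls for tumor cells against macrophages, 7 to 10 and 5 to 8 against T cells (5 without L-fuc day 21), and 15 to 20 and 1 to 2 for macrophages against T cells (1 without control or L-fuc day 21). Vegfa against T cells reversed from -1.29 to 0.64 and 1.02 without other-gate barcodes or UMIs. The median for L-fuc at day 21 in tumor cells went from -0.08 to -0.15 without shared barcodes and to -0.15 thinned. In T cells it went from -0.26 to 0.017 without several gates, 0.16 thinned and -0.057 without other gate UMIs. From day 0 to day 7 in T cells 0.30 became 0.57 without several gates and 0.75 thinned, and from day 7 to day 21 -0.23 became -0.62 without several gates, while tumor cells went from -0.29 to -0.048 thinned. The cause was not tested. No paired analysis was possible because the libraries are pools and share no mouse number, and the block above is the library itself.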

Other observations

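Gapdh and Eno1 followed another course across libraries than Pgk1, Tpi1 and Ldha in tumor cells. Gapdh held 3522, 1341, 2117, 1701 and 2780.3 CPM and Eno1 874, 408, 557, 629 and 1017, lowest at control day 7 and above control in the L-fuc library on both days, while Pgk1, Tpi1 and Ldha were highest at pretreatment and lowest at L-fuc day 21. Eno1b, a near-identical copy of Eno1, held 505, 146, 205, 356 and 364, and reads of the copies cannot be told apart here. The course of Gapdh was not particular to tumor cells. In macrophages of 1 gate only, Gapdh held 3214, 1401, 1785, 2216 and 2934 CPM. There too it was lowest at control day 7 and above control with L-fuc on both days.

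Hilpda in T cells rested on few barcodes at day 21. Its 559 UMIs in the control library came from 32 of 67 barcodes, and 3 barcodes held 58% of them. In the L-fuc library 3 barcodes held 70.5% of 264 UMIs, while at control day 7 the highest 3 held 8.03% of 1669.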
